A study of Mus musculus with 2 samples.

Results

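Angiopoietin-Tie signalling in glomeruli was described through 5 genes: the ligand genes Angpt1 and Angpt2, the receptor genes Tek (which encodes Tie2) and Tie1, and Ptprb, which encodes the vascular endothelial phosphatase VE-PTP. Every probe set whose platform gene symbol was exactly one of these names was taken, which gave 5 of the 18193 genes that a probe set named alone, and 9 of the 45101 probe sets on the array. A probe set is a group of short oligonucleotides against 1 transcript. Glomeruli, the filtering capillary tufts of the kidney, had been isolated from male KK/Ta mice at 20 weeks of age that received a high-fat diet (HFD, 1 array) or a normal chow diet (Chow, 1 array). KK/Ta is an inbred strain prone to obesity and type 2 diabetes, so mice on both diets carried that predisposition. The series' text counts 3 mice without saying whether each array holds RNA from 1 animal or from a pool. With 1 array per diet, no p-value or standard error between the diets can be given, and every difference describes these 2 RNA preparations.

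Angiopoietins are secreted glycoproteins that bind the receptor tyrosine kinase Tie2 on endothelial cells. Angiopoietin-1, made by cells that surround the endothelium, activates Tie2 and keeps capillaries quiescent, whereas angiopoietin-2, which endothelial cells store in Weibel-Palade bodies and release on activation, is a weaker, context-dependent ligand that can block angiopoietin-1. Tie1 has no classical high-affinity ligand of its own and modulates Tie2 as a partner, and VE-PTP removes phosphate from Tie2 and so dampens its activity. In the glomerulus podocytes and mesangial cells are known sources of angiopoietin-1.

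Angpt2 had the only probe set above the floor (each array's median) that was at least 1.5-fold apart between the diets, and it was 1.70-fold higher in HFD. The receptor genes Tek and Tie1 and the 2 bright probe sets of Ptprb gave strong signals on both arrays and differed by less than 1.15-fold. Angpt1 lay at or under the level at which signals were read, so its diet difference could not be read, and a difference of 1.5-fold in Angpt1 is not excluded. Values were compared on a log2 scale after each array was centred on its own median, and a floor was set at that median, which corresponds to 42.3 (HFD) and 44.9 (Chow) on the deposited scale. Of the 9 probe sets, 7 were above the floor on both arrays, 1 on the HFD array only and 1 on neither. Probe sets differ in how strongly they bind, so a signal gives no order of transcript amount between genes, and the percentiles below say only where a signal lay on its array.

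**Figure D1:**
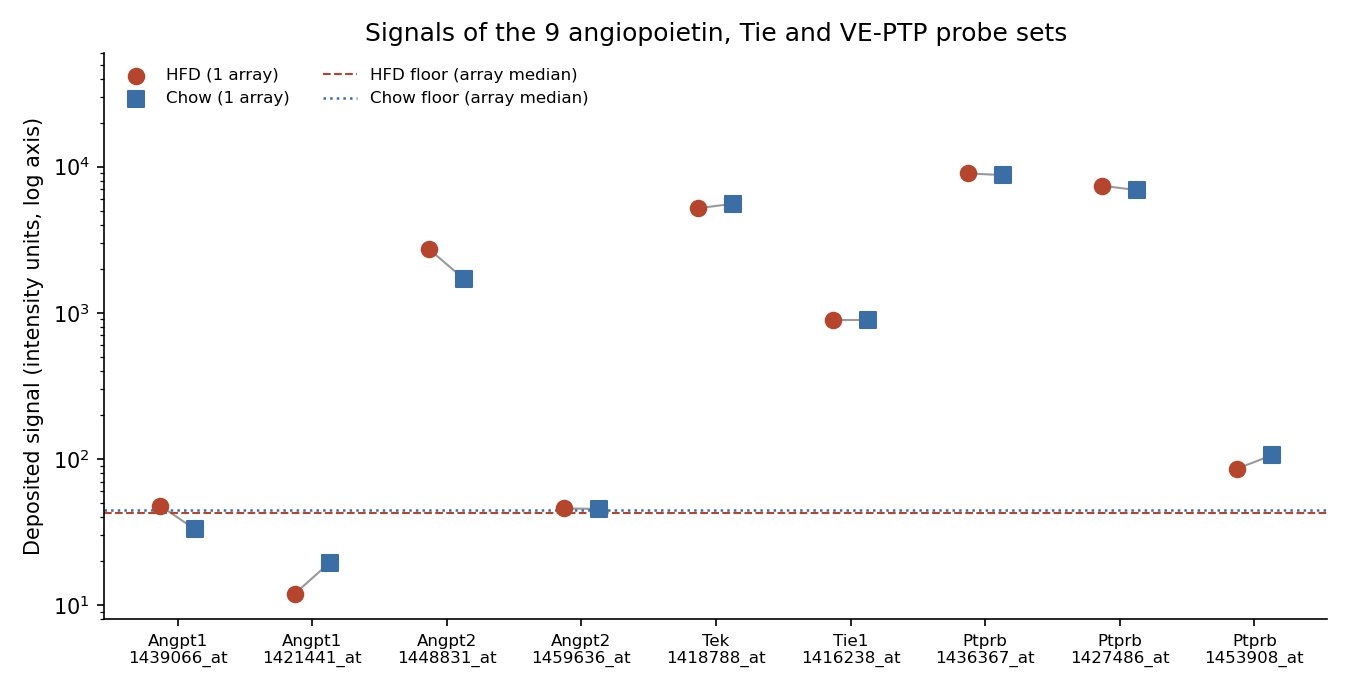
Deposited signal (log axis, intensity units) of each of the 9 probe sets on the HFD array (circles, left) and the Chow array (squares, right), with each array's floor as a dashed or dotted line. Angpt2 probe set 1448831_at stood at 2717 in HFD and 1696 in Chow, the points of Tek and Tie1 lie nearly level, and both Angpt1 probe sets lie near or under the floor.

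Angpt2 was represented by 2 probe sets of very different brightness. The bright one, 1448831_at, had a signal of 2717 in HFD and 1696 in Chow, at the 96.5th and 93.6th percentile of those arrays. The centred log2 difference, HFD minus Chow, was 0.76 (1.70-fold). The deposited signals alone, without centring, gave a ratio of 1.60. In the brightest decile of probe sets above the floor on both arrays, to which this one belongs, differences scattered around their median with a scaled median absolute deviation of 0.157 log2 units. That scatter holds measurement noise and real diet differences together. The Angpt2 difference, counted from 0 and not from the decile's median of 0.06, was 4.87 times its size. Angpt2 stood near the lower edge of this decile, which lay at a mean signal of 2133, and the decile below had a scatter of 0.173. Of the 2162 probe sets in the brightest decile, 20 (0.925%) were higher in HFD by 1.5-fold or more and 11 (0.509%) lower by as much. The difference of 9, Angpt2 included, was at least that of Angpt2. Most of these 2162 were brighter than Angpt2.

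The dim Angpt2 probe set, 1459636_at, designed from an expressed sequence tag, had a signal of 45.8 in HFD and 45.5 in Chow. Both values stood just above the floor, and the log2 difference of 0.09 was smaller than the scatter of 0.331 in the dimmest decile. The higher signal in HFD was therefore read by 1 of the 2 probe sets. The gap between the 2 log2 differences was 0.67. Over the 1925 further probe sets on the arrays that were at least 8-fold dimmer than the brightest of their gene, the median gap was 0.217 and the upper quartile 0.387, so the Angpt2 probe sets were farther apart than most. In the RefSeq annotation of GRCm38.p6 the Angpt2 gene overlaps Mcph1, a gene of chromosome condensation. The Mcph1 probe set above the floor had 88.8 in HFD and 108 in Chow. Its log2 difference of -0.20 was smaller than the scatter of 0.370 at that signal, so no direction could be read.

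Angpt1 signals were at the lower end of the range. Probe set 1439066_at had 47.9 in HFD and 32.9 in Chow, at the 51.8th and 45.4th percentile. It was above the floor on the HFD array only, and with the Chow value raised to the floor the log2 difference was 0.18, or 0.09 without centring. Probe set 1421441_at, designed from the RefSeq transcript, had 11.9 in HFD and 19.5 in Chow, and both values were under the floor. Read without any floor, the first probe set gave a log2 difference of 0.62 and the second one of -0.62. The Angpt1 probe sets thus opposed each other at signals where neither direction could be read, and a diet difference in Angpt1 was not measurable on these arrays.

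The balance of both ligands shared this limit. The log2 difference of bright Angpt2 exceeded that of the brighter Angpt1 probe set by 0.59 when the Chow signal of Angpt1 was raised to the floor, and by 0.14 without a floor. For this Angpt1 probe set the first value is an upper bound, since raising the Chow signal shrinks the Angpt1 difference. The other Angpt1 probe set, 1421441_at, stood at -0.62 without a floor, under the floor on both arrays. No bound on the balance of the 2 ligands follows.

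Tek, the Tie2 receptor gene, had 1 probe set, 1418788_at, with a signal of 5206 in HFD and 5577 in Chow. These lay at the 98.7th and 98.8th percentile, among the strongest signals of both arrays. The log2 difference was -0.02 (1.01-fold). Counted from 0, it was -0.10 times the scatter at that brightness, where the median difference was 0.06. Tie1, probe set 1416238_at, had 892 in HFD and 893 in Chow, at the 88.3rd and 88.1st percentile. Its log2 difference was 0.08 after centring and -0.0022 without it, so it had no direction apart from the scaling of the arrays. The difference of Tek minus that of Tie1, in which the scaling cancels, was -0.10 log2 units, within the scatter of 0.185 at the signal of Tie1. Neither receptor transcript reached 1.5-fold. Single arrays cannot set how small a change in the receptors could have been missed.

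Ptprb had 3 probe sets, 2 of them among the brightest of the arrays. Probe set 1436367_at had 8998 in HFD and 8760 in Chow, a log2 difference of 0.12. Probe set 1427486_at had 7408 in HFD and 6903 in Chow, a log2 difference of 0.19. Their percentiles ran from 99.2 to 99.6, and the gap between their differences was 0.06, below the median of 0.175 over 8155 further probe sets of all genes. The dim probe set, 1453908_at, for which the annotation lists no transcript accession, had 85.7 in HFD and 106 in Chow. Its log2 difference of -0.22 was smaller than the scatter of 0.370 at its signal. The bright Ptprb difference minus that of Tek was 0.14 log2 units, so the phosphatase and its receptor substrate were within the scatter of 0.157 of each other.

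**Figure D2:**
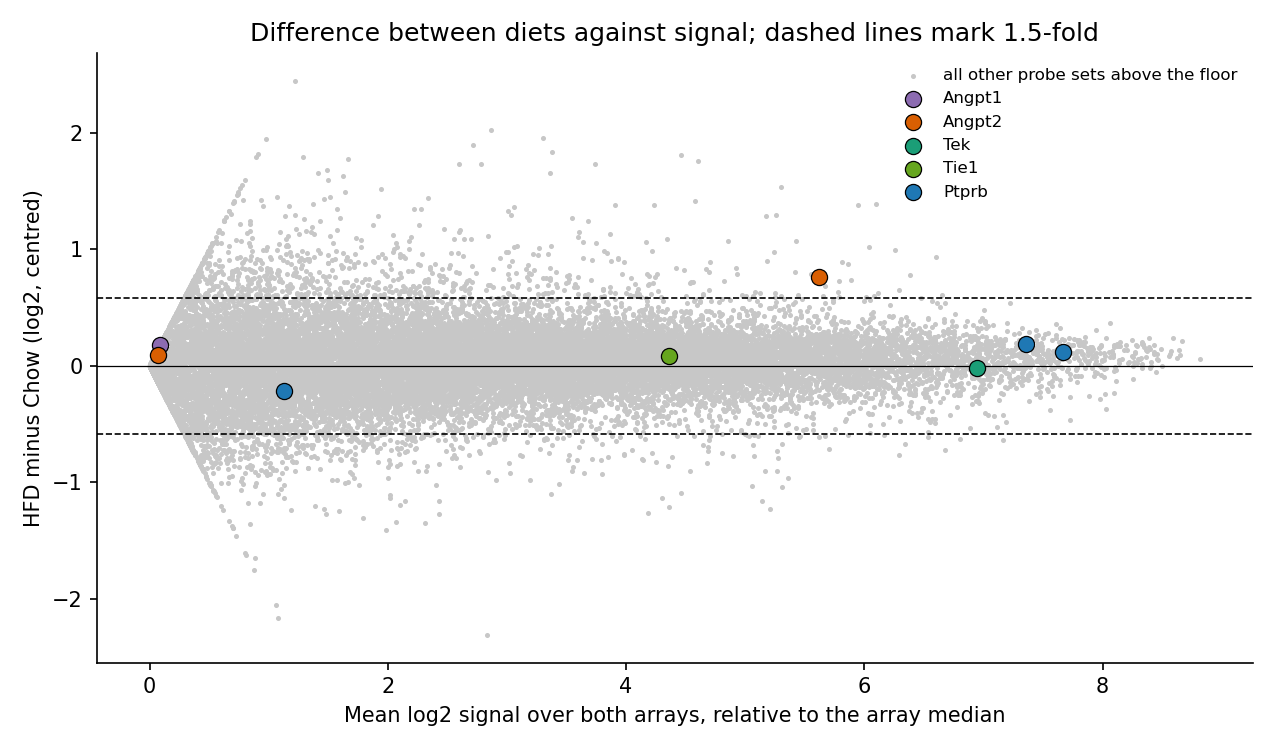
HFD minus Chow log2 difference (vertical axis) against the mean centred log2 signal over both arrays (horizontal axis) for all probe sets above the floor on at least 1 array (grey), with the 8 member probe sets above the floor coloured by gene. Bright Angpt2 at 0.76 lies above the dashed line at 1.5-fold, and the other 7 lie between the dashed lines.

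Of the 8 member probe sets above the floor on at least 1 array, 1 passed 1.5-fold upward in HFD (bright Angpt2) and 0 passed it downward. Over all 23419 probe sets above the floor on at least 1 array, 3.66% passed it upward and 2.58% downward. No member reached 2-fold, as 0.615% of all probe sets did upward and 0.295% downward. A count of 1 in 8 is too small to be set apart from these shares. The median difference of the 8 probe sets was 0.11 log2 units, beside 0.04 over all probe sets.

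Tek, Tie1, Ptprb and Angpt2 are transcribed largely in endothelial cells, so their differences were set beside 26 other endothelial markers, each represented by its brightest probe set. All 26 were above the floor on both arrays. Defining markers of the labelled tissue were present, since all 19 podocyte markers with a probe set were above the floor too, among them Podxl and Synpo of the foot processes. Of the endothelial markers 21 were higher in HFD and 5 lower by any amount, with a median of 0.19 log2 units. Among all genes 62.2% were higher, with a median of 0.06, or -0.02 without centring, where the endothelial median was 0.11. The brightest markers were Ehd3, an endocytic protein of glomerular endothelium (14651 in HFD and 14184 in Chow), the semaphorin and VEGF co-receptor Nrp1 (12855 and 12395) and Emcn, the sialomucin endomucin (9720 and 9069). Their log2 differences were 0.13, 0.14 and 0.18.

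Angpt2 was 0.57 log2 units above the endothelial median, and 25 of the 26 markers had a smaller difference. Both statements rest on its bright probe set, and the excess was 0.25 when each gene was taken as the median of its probe sets. The exception was Vwf, which encodes von Willebrand factor, the main cargo of the Weibel-Palade bodies that also hold angiopoietin-2. Its signal was 116 in HFD and 52.8 in Chow, a log2 difference of 1.22 (2.32-fold) read by 1 probe set not far above the floor. Tek lay 0.21 log2 units below the endothelial median, with 22 markers higher than it. Tie1 and Ptprb lay 0.11 and 0.07 below that median, inside the range of the markers. In bulk RNA, fewer cells of a type and less RNA per cell cannot be told apart.

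**Figure D3:**
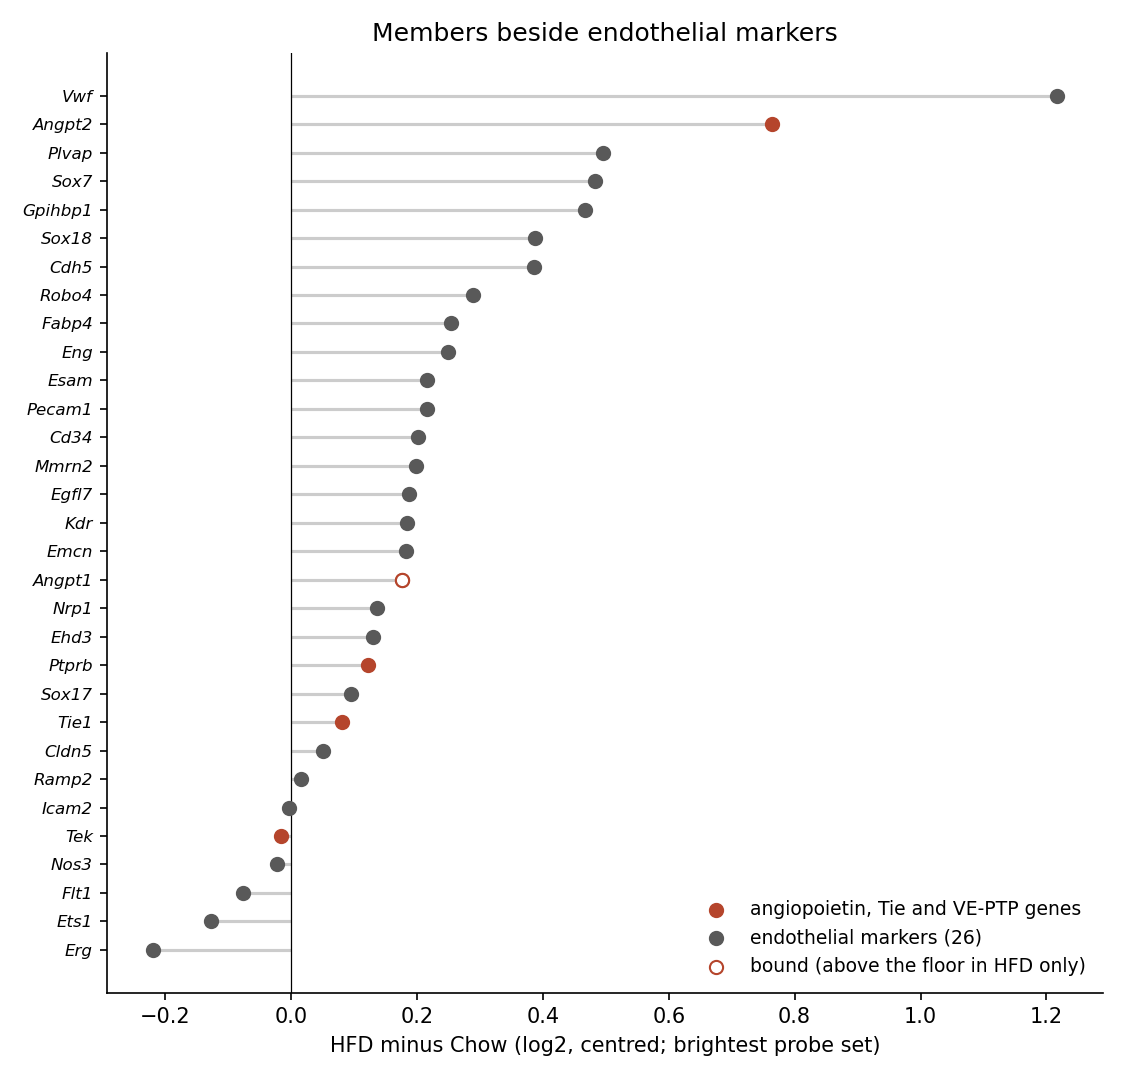
HFD minus Chow log2 difference of the brightest probe set of each of the 5 genes (red, Angpt1 as an open circle because its Chow value was raised to the floor) and of 26 endothelial markers (grey), sorted by size. Vwf at 1.22 and Angpt2 at 0.76 stand at the top, and Tek at -0.02 lies near the bottom.

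Macrophage and myeloid markers were higher in HFD in the same comparison. Of 22 macrophage and myeloid markers 21 were above the floor, and 20 of these were higher, 13 of them by 2-fold or more. Their median difference was 1.15 log2 units. Across all genes 62.2% were higher by any amount, 0.731% were higher by 2-fold or more and 0.158% lower by as much. Their summed signal was 10966 in HFD and 6302 in Chow. H2-Eb1 and Cd74 of MHC class II presentation, the phagocyte oxidase gene Cybb and the lysosomal membrane gene Laptm5 were higher by 1.96, 1.84, 1.79 and 1.77 log2 units, although 1 further Laptm5 probe set stood at -0.91. The brightest members were Mrc1, the mannose receptor (2294 in HFD and 2267 in Chow), Csf1r, the receptor for macrophage colony-stimulating factor (1009 and 627), and H2-Aa (1023 and 416).

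Tubule markers moved with the same array. The counts that follow stand beside a share of 62.2% higher by any amount over all genes. All 22 proximal tubule markers were above the floor, 21 of them higher, with a median of 0.56 and a summed signal of 26973 in HFD and 19745 in Chow. Slc22a6, Napsa and Slc3a1 were higher by 1.21, 1.12 and 1.07 log2 units. The brightest were Acsm2 (4865 in HFD and 3506 in Chow), Slc27a2 (4636 and 2855) and Kap (2742 and 1968). Of 17 markers of tubule segments beyond the proximal one (loop, distal tubule, collecting duct), 13 were above the floor and 11 of these higher, with a median of 0.61 and a summed signal of 10742 in HFD and 7687 in Chow. Umod, Slc12a3 and Cdh16 were the brightest of them, with log2 differences of 0.50, 0.83 and 0.57. Under the floor on both arrays were 1 of the myeloid markers and 4 of the markers beyond the proximal tubule. The differences ran from -0.24 to 1.21 (proximal), -0.12 to 0.83 (beyond the proximal segment) and -0.16 to 1.96 (myeloid). Angpt2 at 0.76 lay within these wide ranges, and so did Tek, Tie1 and bright Ptprb, so the ranges do not set Angpt2 apart. The part of RNA from such cells or their vessels in the Angpt2 difference was not tested.

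Mesangial, smooth muscle and podocyte lists stood closer to the median of all genes than the myeloid and tubule lists. The share higher by any amount was 69.2%, 71.4% and 26.3% of these lists in turn, beside 62.2% of all genes. The mesangial and smooth muscle shares rest on 13 and 7 genes and are near that of all genes. Mesangial markers had a median of 0.15 (9 higher and 4 lower), with Igfbp5, Itga8 and Pdgfrb brightest at 0.13, 0.15 and -0.12. Smooth muscle and renin cell markers had a median of 0.13 (5 higher and 2 lower), with Mylk, Rgs5 and the actin gene Acta2 brightest at 0.13, 0.37 and 0.53. Podocyte markers had a median of -0.06 (5 higher and 14 lower), with Podxl, Cdkn1c and Synpo brightest at -0.0029, 0.03 and -0.04. Dach1, at -0.78 on its brightest probe set, was the 1 podocyte marker past 1.5-fold, downward. The mesangial and smooth muscle lists had 1 marker each past 1.5-fold, upward. At that size 4.23% of all genes passed upward and 1.42% downward. Of the 4 lymphatic endothelial markers with a probe set, 3 (Prox1, Lyve1 and Reln) were under the floor on both arrays. Flt4, which encodes VEGF receptor 3 and is also known in blood capillaries, had 1306 in HFD and 909 in Chow, a log2 difference of 0.61. Its 1 further probe set above the floor read lower, and the median over both was 0.43.

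**Figure D4:**
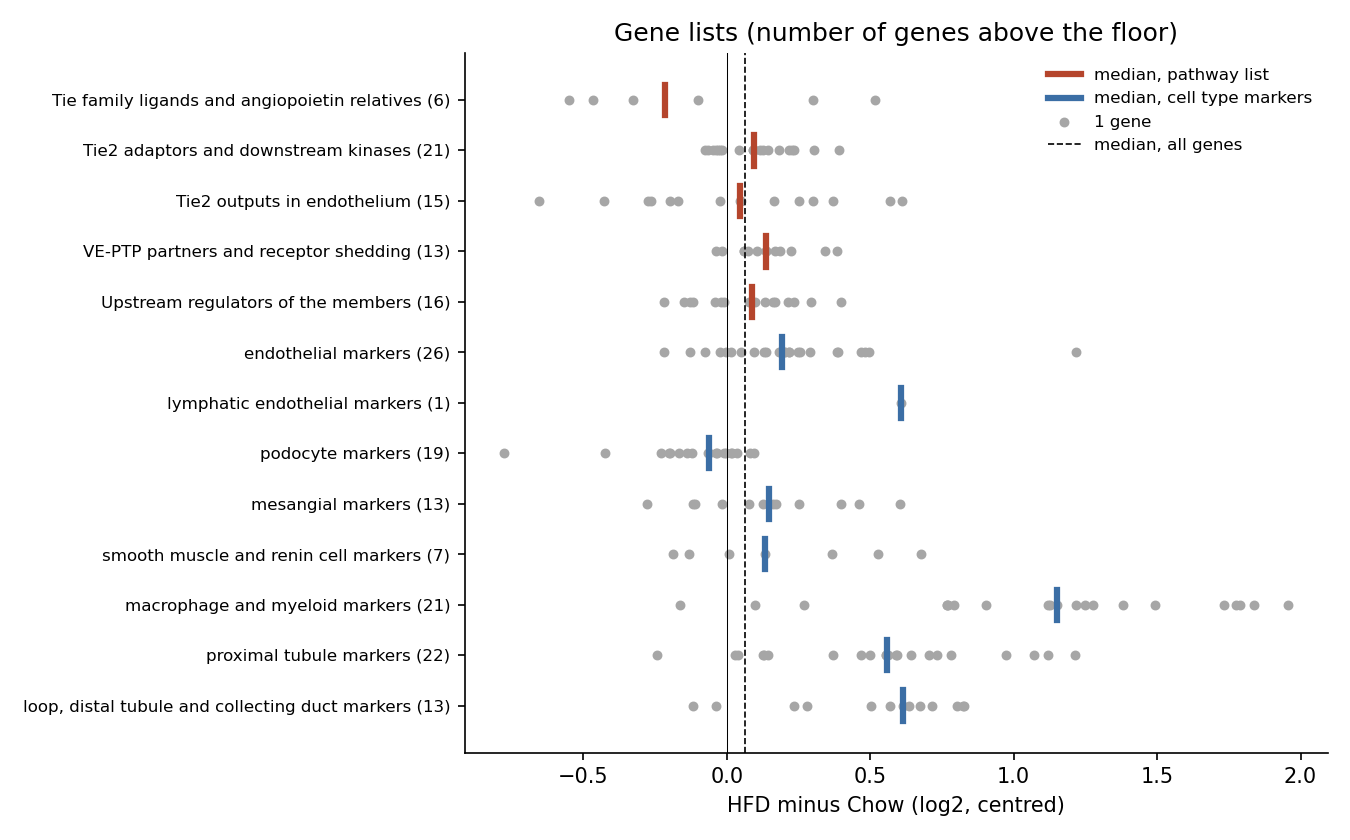
HFD minus Chow log2 difference of the genes of 5 pathway lists and 8 cell type lists (grey points, genes above the floor, number in brackets), with each list's median as a bar and the median of all genes as a dashed line. The myeloid list and both tubule lists have medians of 1.15, 0.56 and 0.61, and the 4 lists of Tie2 signalling other than the ligand relatives have medians between 0.05 and 0.14.

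Relatives of the angiopoietins lay in both directions. Of 10 listed ligands and relatives 8 had a probe set and 6 were above the floor, of which 2 were higher and 4 lower, none by 1.5-fold, with a median of -0.21. Among all genes, 62.2% were higher by any amount, 4.23% passed 1.5-fold upward and 1.42% downward. Angptl4, a PPAR-regulated inhibitor of lipoprotein lipase, had 1176 in HFD and 1722 in Chow (-0.47). The fibrinogen-like gene Fgl2 had 166 in HFD and 257 in Chow (-0.55). Svep1, a large matrix protein of vessel development, stood at -0.10 and Angptl7 at 0.30. Angpt4, the third angiopoietin ligand gene of the mouse, had 60.5 in HFD and 18.2 in Chow, above the floor in HFD only. With the Chow value raised to the floor, its log2 difference was 0.52 (1.43-fold). The scatter in the dimmest decile was 0.331. A single dim probe set, on the floor in Chow like the brighter one of Angpt1, sets no bound on a diet difference.

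Genes that carry the Tie2 signal inside the cell differed by less than 1.5-fold between the diets. All 21 adaptor and kinase genes with a probe set were above the floor, 14 higher and 7 lower. Their median was 0.10, with a range of -0.08 to 0.39. Over all genes 62.2% were higher by any amount, 4.23% passed 1.5-fold upward and 1.42% downward. A list of 21 genes is too short for its counts to be set apart from these shares. The brightest were the small GTPase gene Rac1 (10195 in HFD and 9285 in Chow, 0.22), the scaffold Iqgap1 (5525 and 4976, 0.23), the phosphatase SHP2 gene Ptpn11 (4374 and 4754, -0.04) and Rhoa (4061 and 4039, 0.09). The Tie2 docking protein gene Dok2 stood at 0.12 and the kinase gene Akt1 at 0.10.

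Outputs of Tie2 in endothelium spread more widely than the adaptor and kinase genes, and in both directions. Of 17 listed genes 15 were above the floor, 8 higher and 7 lower, with a median of 0.05 that was -0.04 without centring. Esm1, a proteoglycan gene of activated endothelium, was 1.53-fold higher (157 in HFD and 109 in Chow), and Pgf, the VEGF family ligand placental growth factor, was 1.57-fold lower (114 in HFD and 190 in Chow). Each of these 2 was read by 1 probe set. Esm1 passed 1.5-fold only with the 0.083 log2 units that centring added, whereas Pgf passed it with or without centring. Their log2 differences were 0.61 and -0.65, where the scatter was 0.323 at the signal of Esm1 and 0.276 at that of Pgf. Among all genes 62.2% were higher by any amount. At 1.5-fold, 4.23% of all genes passed upward and 1.42% downward. A count of 1 gene each way of 15 is too small to be set apart from these shares. Foxo1, the transcription factor that Akt restrains and that is known to drive Angpt2, had 1287 in HFD and 1216 in Chow (0.16), and its 2 further probe sets above the floor stood at 0.18 and -0.12. The nitric oxide synthase gene Nos3 stood at -0.02. The flow-induced factors Klf2 and Klf4 stood at -0.26 and -0.17, and the junction genes Cldn5 and Tjp1 at 0.05 and 0.05. E-selectin (Sele), a leukocyte adhesion molecule, had 192 in HFD and 137 in Chow (0.57), while Vcam1 stood at -0.27.

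Partners of VE-PTP and enzymes of receptor shedding had a median between that of all genes (0.06) and that of the endothelial markers (0.19). Cdh5 and Kdr belong to both this list and the endothelial markers. Of 14 genes 13 were above the floor, 11 higher and 2 lower, none by 1.5-fold, with a median of 0.14. The share higher by any amount was 62.2% over all genes, where 4.23% passed 1.5-fold upward and 1.42% downward. With 13 genes, the lack of any past 1.5-fold cannot be set apart from those last 2 shares. Cdh5, which encodes VE-cadherin, the junction protein bound by VE-PTP, had 1065 in HFD and 864 in Chow (0.39). The brightest were Ctnnb1, which encodes beta-catenin (0.14), the metalloproteinase inhibitor gene Timp3 (0.14), the VEGF receptor 2 gene Kdr (0.18) and the integrin gene Itgav (-0.02). Adam17, a sheddase, stood at 0.17.

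Upstream regulators of the 5 genes had a median of 0.09, with 9 higher and 7 lower of 16 above the floor and none at 1.5-fold. Shares over all genes were 62.2% higher by any amount, 4.23% past 1.5-fold upward and 1.42% downward. Counts from 16 genes are too small to be set apart from these. The hypoxia-inducible factor genes Epas1 (15135 in HFD and 14972 in Chow) and Hif1a (3815 and 4159) stood at 0.10 and -0.04. Vegfa, a podocyte product that is known to induce Angpt2 in endothelium, stood at -0.0081 (4770 in HFD and 5082 in Chow). The ETS factor genes Ets1 and Ets2 stood at -0.13 and 0.24, and Pdgfrb at -0.12. The differences of these regulators ran from -0.22 to 0.40, and their median was close to the 0.06 of all genes. Only their transcripts were measured, and a part of any regulator in the Angpt2 difference was not tested.

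**Figure D5:**
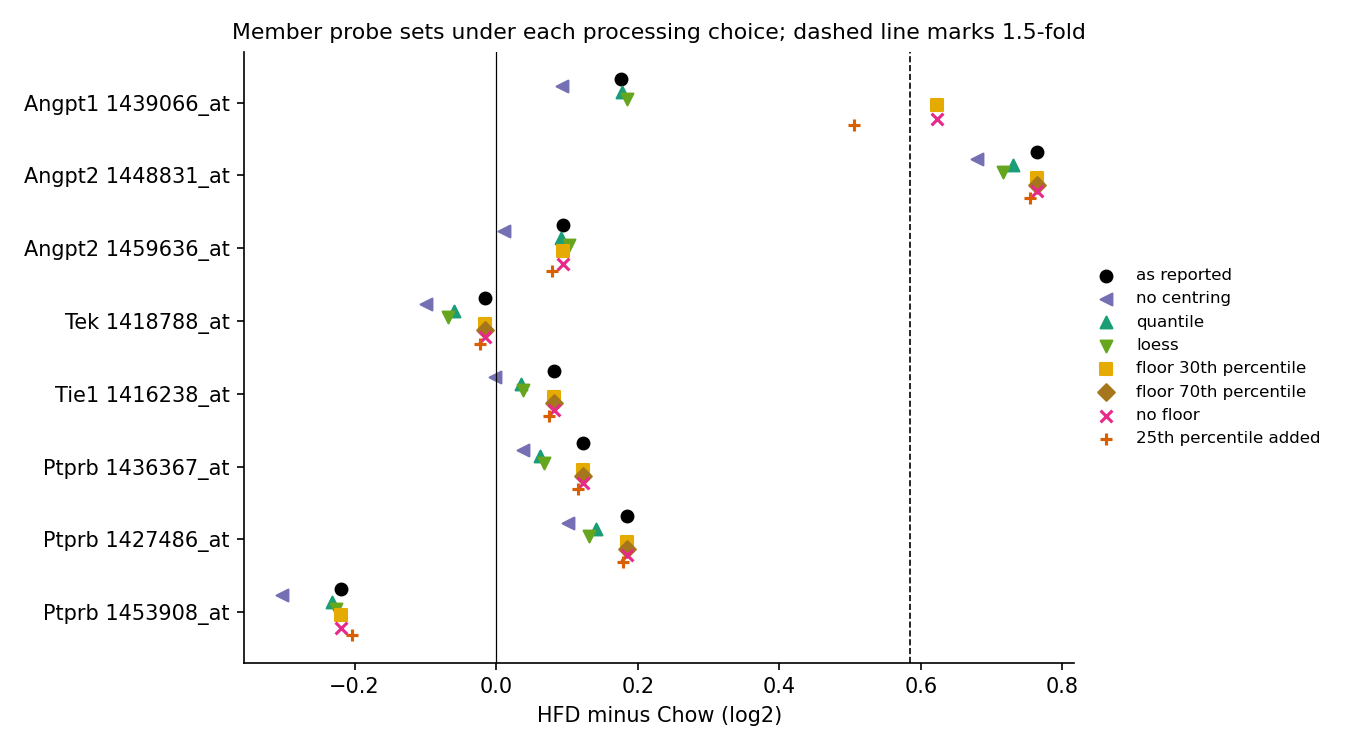
HFD minus Chow log2 difference (horizontal axis) of the 8 member probe sets above the floor under the reported processing (black) and 7 other processing choices, with the dashed line at 1.5-fold. Bright Angpt2 stays between 0.68 and 0.76, whereas Angpt1 1439066_at ranges from 0.09 to 0.62.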

How the data were processed

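RNA from isolated glomeruli was labelled by two-cycle amplification and hybridised to Affymetrix Mouse Genome 430 2.0 arrays, per the labels' protocols and the series' design text, which names GeneSpring 7.3.1 for the authors' comparison. The deposited values are probe set intensities on a linear scale, with a lowest value of 0.0534 (HFD) and 0.0539 (Chow) and a highest of 19489 (HFD) and 19853 (Chow). The summarisation method and scaling are not given in the sources used here, and no detection calls were used. Having 1 array per diet limits the precision.

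After removal of the 64 control probe sets, log2 values were centred on each array's median, which added 0.083 to every HFD minus Chow difference, and raised to a floor at the 50th percentile of each array. Genes were named through the platform annotation of 2016 and represented by the probe set with the highest mean. Precision was described by the scatter within 10 equal bins of mean signal. Of each pathway list, genes at least 1.5-fold apart and the 4 brightest others were named; of each marker list, the 3 brightest and up to 4 at least 2-fold apart. Angpt4, Dok2, Akt1, Foxo1, Nos3, Sele, Vcam1, Cdh5, Adam17, Hif1a, Vegfa, Mcph1, Dach1 and the under-floor lymphatic genes were named after their values were seen. Members, lists and thresholds were chosen with earlier results of these data known. Instead of median centring, quantile or loess scaling (span 0.3) or none was tried; instead of this floor, the 30th or 70th percentile, none, or the 25th percentile added before the log2; and probe sets ending in _x_at or _s_at were dropped, or a gene's probe sets summarised by their median. The procedure was tested on simulated data. Python 3.11.15, numpy 2.4.6, pandas 2.3.3 and statsmodels 0.14.6 were used.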

Additional observations from a re-analysis of the deposited data

How the results depend on the processing

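With 1 array per diet no replicate could be left out and no paired analysis was possible. Bright Angpt2 stayed past 1.5-fold in all 7 alternatives run on single probe sets (log2 difference 0.68 to 0.76). Floor choices could not move so bright a signal. Tie1 changed sign without centring (-0.0022), and so did the median of all genes (-0.02). The Tie2 output median was below 0 without centring, with quantile normalization and with loess (-0.04, -0.02 and -0.0100), and Angpt1 minus the endothelial median was above 0 in quantile and loess fits (0.04 and 0.05). A value was taken as moved when it shifted by more than the scatter at its signal (0.1 for list medians), and a count or share when it changed by more than 1.5 times. Of 305 values under alternatives 270 did not move, 35 moved and 0 called values reversed. Some values could not move, since centring cancels between genes.

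Without centring, 4.09% of all probe sets were at least 1.5-fold lower. With the floor at the 30th percentile, Angpt1 1439066_at was measured on both arrays at 0.62 (1421441_at, above that floor in Chow only, at -0.58), so 2 member probe sets were at least 1.5-fold higher, Angpt2 exceeded Angpt1 by 0.14, and Angpt1 lay 0.43 above the endothelial median. The shares of all probe sets were then 8.07% and 7.01% at 1.5-fold (higher and lower) and 2.18% and 1.69% at 2-fold, and the medians of ligand relatives, lymphatic and myeloid markers were -0.10, 0.34 and 1.31. With the floor at the 70th percentile those shares were 1.72%, 0.944%, 0.30% and 0.0787%, the smooth muscle median 0.25 and the myeloid one 0.84; both Angpt1 probe sets and the dim ones of Angpt2 and Ptprb gave no value. With no floor, Angpt1 1439066_at again stood at 0.62, giving an Angpt2 excess of 0.14 and an Angpt1 excess over the endothelial median of 0.43. Then 2 of the 8 member probe sets counted were at least 1.5-fold higher. Angpt1 1421441_at, outside that count, stood at -0.62, past 1.5-fold downward. Shares were then 4.14% (1.5-fold lower), 1.43% and 0.901% (2-fold higher and lower), and the myeloid median was 1.38. With the 25th percentile added, the 2-fold shares were 1.01% and 0.534%, the Angpt2 excess over Angpt1 0.25 and that of Angpt1 over the endothelial median 0.32. In these settings the floor itself sets which dim signals count. Without shared probe sets (_x_at and _s_at) the median of ligand relatives was -0.10. With a gene taken as the median of its probe sets, Angpt2 lay 0.25 above the endothelial median and 0.25 above Angpt1, since its dim probe set then counts as much as the bright one, and the lymphatic and myeloid medians were 0.43 and 1.04.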
